A study of Mus musculus with 12 samples.

Results

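Of 7 genes named for their ties to the aryl hydrocarbon receptor (AHR), 3 encode Ugt1a enzymes (Ugt1a6a, Ugt1a6b and Ugt1a7c), 2 encode the receptor and its repressor (Ahr and Ahrr), and 2 are AHR target genes (Cyp1b1 and Tiparp). They come from a table of 25208 genes. Rows were found for 6 of the 7; Ahrr was not analysed here. Of those 6, 5 passed the filter on low counts, together with 16508 genes in all. Ugt1a7c did not pass. The genes were chosen by symbol and with the strong measured response of Ugt1a6a to dDAVP known, so the dDAVP values of these genes are given as a description with no test, and tests are given only for the siRNA comparisons and the interaction. Other genes of the same pathways were tested in all comparisons, though their lists were also chosen with earlier results of these data known.

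The RNA came from mouse mpkCCDc11 cells, an immortalised clonal line of kidney collecting duct cells, labelled WT in every group. The 4 groups of 3 libraries were Ctnnb1 siRNA with dDAVP, Ctnnb1 siRNA with vehicle, control siRNA with dDAVP and control siRNA with vehicle. Each siRNA was transfected at 50 nM. All cells spent 4 days on semipermeable filters and a further 24 h free of serum and hormones. The V2-selective vasopressin analogue dDAVP was then added basolaterally, at 1 nM for 24 h. Ctnnb1 encodes beta-catenin, and the design asks how its loss bears on the response to the agonist. The labels do not say that replicates were separate cultures, so p-values reflect the spread among the libraries alone, and that spread may be technical.

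UDP-glucuronosyltransferases of the UGT1A family join glucuronic acid to bilirubin, phenols, steroids and drugs, which makes them water-soluble and ready for export. The family is built from a single locus: each gene has its own 5′ exons, which encode the part that binds the substrate, and all splice to the same 3′ exons, which encode the part that binds UDP-glucuronic acid. UGT1A6 enzymes act mainly on small planar phenols. AHR is a ligand-activated transcription factor that is held in the cytosol by chaperones, moves to the nucleus when a ligand binds, pairs with ARNT and raises genes such as Cyp1a1, Cyp1b1, Tiparp and Ugt1a6. Tiparp and Ahrr then dampen the receptor. The V2 receptor of collecting duct principal cells signals through cAMP and protein kinase A.

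Libraries held 32997720 to 48935473 counted reads. Ctnnb1 was 2.39-fold lower with Ctnnb1 siRNA under vehicle (log2 change -1.26 ± 0.05 SE, edgeR adjusted p = 6.3e-10) and 2.37-fold lower under dDAVP (log2 change -1.24 ± 0.05 SE, edgeR adjusted p = 7.64e-10). The 6 epithelial markers together reached 3843 to 4420 TPM in the libraries. Of 12 principal cell markers 11 had a row and 8 a mean of at least 1 TPM. Avpr2, the V2 receptor gene, averaged 38.0 TPM. Aqp2, the vasopressin-regulated water channel gene, averaged 3.42 TPM and ran from 0 to 11.25 TPM over the libraries. Aqp4, Elf5 and Scnn1b averaged only 0.035, 0.0125 and 0.178 TPM. Fibroblast markers summed to at most 0.74 TPM and endothelial markers to at most 0.2 TPM. Of the intercalated cell markers Atp6v1b1, a proton pump subunit gene, averaged 59.7 TPM, while Slc4a1, the anion exchanger gene, was at most 0.06 TPM. Leukocyte markers summed to 3.88 to 8.13 TPM, nearly all of it Cd68, a lysosomal protein gene, with the pan-leukocyte marker Ptprc at most 0.1 TPM. Of 8 proximal tubule markers 3 had a row, and nearly all of their signal was Lrp2, at 10.4 TPM on average. Replicate 3 of Ctnnb1 siRNA with dDAVP stood apart: mitochondrial rRNA made up 1.52% of its reads, against 0.464% to 1.27% in the other 11 libraries, and the SD over genes of its log2 difference from its 2 group mates averaged 0.275, against 0.170 to 0.247 elsewhere. Fitted ratios of the Ugt1a and AHR genes, and of the list genes called with it, are also given without it.

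The 3 Ugt1a genes lie on chromosome 1 of GRCm38 within the same locus, Ugt1a6a at 88134809 to 88220002, Ugt1a6b at 88103257 to 88218998 and Ugt1a7c at 88095001 to 88220002 (gene IDs 94284, 394435 and 394432). Rows for Ugt1a1, Ugt1a2, Ugt1a5, Ugt1a9 and Ugt1a10 were also in the table, which makes 8 in all. These spans are from RefSeq. In the GENCODE M21 annotation the last 4 exons of each gene start at the same place in all 8, at 88215044, 88215795, 88216138 and 88218127. These exons make up 57.1% of the 2297 exon bases of Ugt1a6a and 57.2% of those of Ugt1a6b. For Ugt1a7c they make up 71.7%, which counts its longer last exon whole. That exon has 1876 bases, against 871 to 878 in the other genes, so its far end belongs to Ugt1a7c alone. How the counting divided reads of shared exons is not stated, so single Ugt1a rows are uncertain and the 8 rows were also read as a sum.

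**Figure D1:**
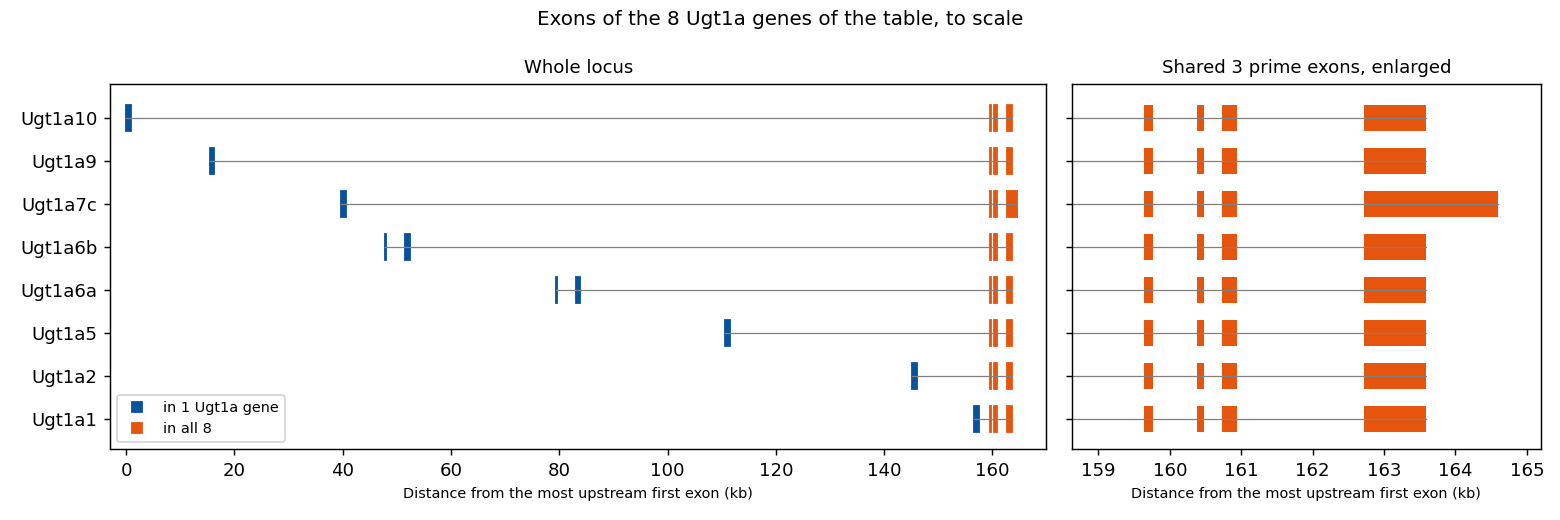
Exons of the 8 Ugt1a genes of the table, drawn to scale as distance in kb from the most upstream exon of the locus, with the shared 3′ exons enlarged on the right. Blue exons belong to 1 gene and orange exons to all 8, so a read in an orange exon does not name a gene. The exception is the far end of the last exon, which only Ugt1a7c has.

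Ugt1a6a and Ugt1a6b are near copies even in the exons they do not share. Their exon 1, of 127 bases, has 0 differences, and exon 2, of 859 bases, has 26 differences (97.0% identity) with a longest identical run of 251 bases. The stretch of 120 bases with the most differences shows what sets reads of the 2 genes apart. It lies in exon 2 at chr1:88138714-88138833 for Ugt1a6a and at chr1:88107182-88107301 for Ugt1a6b, both on the plus strand of GRCm38, and capitals mark the 15 bases that differ.
Ugt1a6a exon 2: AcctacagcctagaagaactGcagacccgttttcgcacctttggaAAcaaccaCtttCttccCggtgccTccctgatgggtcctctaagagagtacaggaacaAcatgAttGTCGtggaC
Ugt1a6b exon 2: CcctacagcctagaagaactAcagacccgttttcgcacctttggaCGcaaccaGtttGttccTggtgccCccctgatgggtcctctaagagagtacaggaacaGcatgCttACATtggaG
A read from exon 1, or from within the run of 251 identical bases, holds none of the differences and cannot be told apart between the 2 genes.

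Ugt1a6a was the best supported Ugt1a row and was several-fold higher with dDAVP whichever siRNA the cells had received. With Ctnnb1 siRNA it had 202, 163 and 284 reads under dDAVP (replicates 1 to 3), against 25, 17 and 32 under vehicle. With control siRNA it had 170, 151 and 223 reads under dDAVP, against 26, 28 and 8 under vehicle. Every dDAVP library lay above every vehicle library, as it did for 9.54% of all tested genes with Ctnnb1 siRNA and for 10.2% with control siRNA. As read counts scaled by library size (CPM), the dDAVP and vehicle means were 4.71 ± 1.16 and 0.580 ± 0.184 CPM with Ctnnb1 siRNA, and 4.28 ± 0.441 and 0.513 ± 0.331 CPM with control siRNA (SD, n = 3 each). The fitted log2 ratios were 3.02 ± 0.34 (SE) with Ctnnb1 siRNA, or 8.11-fold, and 3.12 ± 0.35 with control siRNA, or 8.67-fold. By size of log2 ratio Ugt1a6a was number 22 and number 23 of the 16508 genes in these comparisons. Without replicate 3 of Ctnnb1 siRNA with dDAVP the first ratio was 2.81. In bulk RNA, fewer cells of a type and less RNA per cell cannot be told apart. The summed proximal tubule markers were at 8.32 to 9.34 TPM under dDAVP, against 10.99 to 11.04 TPM under vehicle, with Ctnnb1 siRNA, and at 8.67 to 10.69 TPM, against 11.11 to 13.29 TPM, with control siRNA, lower without overlap in both. The summed epithelial markers were higher without overlap in both, at 4342 to 4420 TPM under dDAVP, against 3874 to 3947 TPM under vehicle, with Ctnnb1 siRNA, and at 4192 to 4280 TPM, against 3843 to 4023 TPM, with control siRNA. The summed principal cell markers overlapped in both. With Ctnnb1 siRNA they were at 102.13 to 124.09 TPM under dDAVP, against 100.31 to 105.53 TPM under vehicle. With control siRNA they were at 112.02 to 146.49 TPM, against 103.94 to 112.28 TPM. Leukocyte markers were at 4.85 to 8.13 TPM under dDAVP, against 4.93 to 5.08 TPM under vehicle, with Ctnnb1 siRNA, and at 5.13 to 5.85 TPM, against 3.88 to 5.01 TPM, with control siRNA. The part of these marker levels in the result was not tested.

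Ugt1a6b had fewer reads, 183 over the 12 libraries, against 1329 for Ugt1a6a. With Ctnnb1 siRNA it had 25, 35 and 13 reads under dDAVP, against 2, 4 and 10 under vehicle. With control siRNA it had 26, 23 and 32 reads under dDAVP, against 7, 1 and 5 under vehicle. The groups again did not overlap, but the lowest dDAVP value, in replicate 3 of Ctnnb1 siRNA, was close to the highest vehicle value (0.274 and 0.233 CPM). Fitted log2 ratios were 2.08 ± 0.56 (SE) with Ctnnb1 siRNA and 2.65 ± 0.57 with control siRNA. The first was 2.89 without replicate 3 of Ctnnb1 siRNA with vehicle and 2.40 without replicate 3 of Ctnnb1 siRNA with dDAVP.

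Ugt1a7c had 2 and 4 reads, in replicates 2 and 3 of control siRNA with dDAVP, and 0 reads in the other 10 libraries. A count of 0 allows up to 3 reads, which is 0.0612 to 0.0895 CPM in these libraries, so no comparison of this gene was possible at this depth. The 5 Ugt1a rows outside the named genes also had few reads. Over the 12 libraries Ugt1a1, the bilirubin-conjugating enzyme, had 54 reads, Ugt1a5 had 32, Ugt1a2 had 16, Ugt1a10 had 8 and Ugt1a9 had 2.

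**Figure D2:**
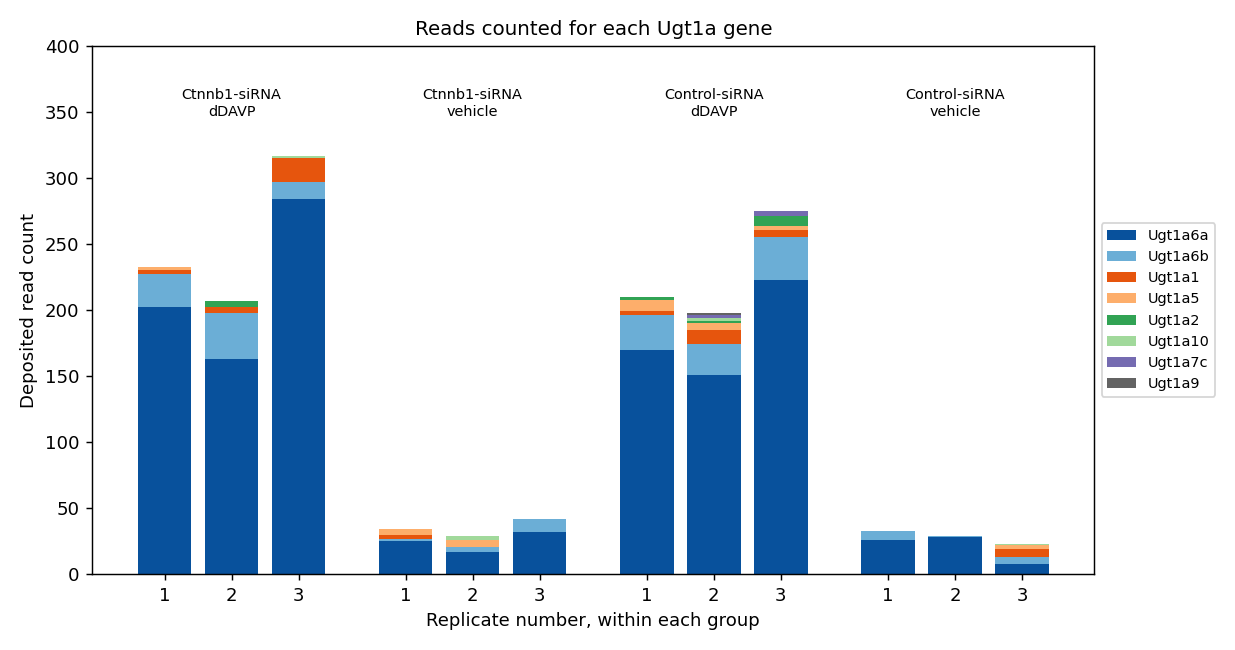
Deposited read counts of the 8 Ugt1a genes, stacked, for each of the 12 libraries (x axis, replicate number within each group). The 6 dDAVP libraries reach 198 to 317 reads and the 6 vehicle libraries 23 to 42, and the dark blue Ugt1a6a block is the tallest in every library.

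A sum over the 8 rows does not depend on how shared reads were divided among them. It would depend on whether such reads were dropped or counted more than once, which is not stated. Summed, the locus had 233, 207 and 317 reads under dDAVP with Ctnnb1 siRNA, against 34, 29 and 42 under vehicle. With control siRNA the sums were 210, 198 and 275 reads under dDAVP, against 33, 29 and 23 under vehicle. The fitted log2 ratio was 2.74 ± 0.20 (SE) with Ctnnb1 siRNA, or 6.69-fold, and 3.01 ± 0.21 with control siRNA, or 8.04-fold. Without replicate 3 of Ctnnb1 siRNA with dDAVP the first was 2.58. Replicates were closer for the sum than for its parts: the SD of log2 CPM within groups, pooled over the 4 groups, was 0.268 for the sum, 0.589 for Ugt1a6a and 0.637 for Ugt1a6b. Poisson error alone is large here, since the lowest sum, of 23 reads, has a 95% counting interval of 14.6 to 34.5 reads, and intervals cover counting error only.

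Ugt1a6a took most of the reads of the locus in each group. Its share was 85.7% of 757 reads (95% Wilson interval 83.1% to 88.0%) for Ctnnb1 siRNA with dDAVP, and 70.5% of 105 reads (61.2% to 78.4%) for Ctnnb1 siRNA with vehicle. For control siRNA it was 79.6% of 683 reads (76.5% to 82.5%) with dDAVP and 72.9% of 85 reads (62.7% to 81.2%) with vehicle. Over replicates the share ran from 78.7% to 89.6% and from 58.6% to 76.2% in the Ctnnb1-siRNA groups with dDAVP and with vehicle, and from 76.3% to 81.1% with control siRNA and dDAVP. It was widest apart in the fourth group: under control siRNA with vehicle, replicate 2 had 96.6% and replicate 3 had 34.8% (8 of 23 reads, Wilson interval 18.8% to 55.1%). Ugt1a6b took 9.64%, 15.2%, 11.9% and 15.3% of the reads in the same 4 groups, and 4.10% in replicate 3 of Ctnnb1 siRNA with dDAVP.

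Knockdown of Ctnnb1 left no detectable change in the Ugt1a rows. Under vehicle the Ctnnb1-siRNA to control-siRNA log2 ratio of Ugt1a6a was 0.23 (95% interval -0.66 to 1.13, edgeR adjusted p = 0.964), and under dDAVP it was 0.14 (-0.46 to 0.73, adjusted p = 0.887). For the summed locus it was 0.30 under vehicle (-0.22 to 0.82, adjusted p = 0.863) and 0.03 under dDAVP (-0.34 to 0.40, adjusted p = 0.966). Ugt1a6b gave 0.32 under vehicle (-1.16 to 1.80, edgeR adjusted p = 0.976) and -0.25 under dDAVP (-1.22 to 0.73, adjusted p = 0.872). The direction of the values for Ugt1a6a and Ugt1a6b, and of the summed locus under dDAVP, turned when single libraries were left out. Without replicate 3 of Ctnnb1 siRNA with dDAVP the ratios under dDAVP were -0.07 for Ugt1a6a, -0.13 for the sum and 0.07 for Ugt1a6b. Whether the dDAVP effect itself differed between the siRNAs was tested by the interaction, which was -0.27 for the summed locus (-0.90 to 0.37, edgeR adjusted p = 0.947), -0.10 for Ugt1a6a (-1.16 to 0.97, adjusted p = 0.992) and -0.57 for Ugt1a6b (-2.34 to 1.20, adjusted p = 0.963). Without that library the interaction was -0.43, -0.31 and -0.25 in the same order. The interval of the sum over all libraries leaves room for a response smaller after knockdown by 0.90, or larger by 0.37, on the log2 scale.

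The promoter of Ugt1a6a is shown because the AHR is known to raise Ugt1a6 and the cAMP pathway acts on DNA through CREB. RefSeq windows of 250 bases before to 50 after each start were searched on both strands for the AHR-ARNT core GCGTG, for the short cAMP response element TGACG and for the full element TGACGTCA, which contains the short one. Of 32817 such windows 32.4% hold the AHR-ARNT core, 20.8% the short element and 1.79% the full element. The Ugt1a6a window, at chr1:88134559-88134858 on the plus strand of GRCm38, holds 0 of each.
Ugt1a6a promoter: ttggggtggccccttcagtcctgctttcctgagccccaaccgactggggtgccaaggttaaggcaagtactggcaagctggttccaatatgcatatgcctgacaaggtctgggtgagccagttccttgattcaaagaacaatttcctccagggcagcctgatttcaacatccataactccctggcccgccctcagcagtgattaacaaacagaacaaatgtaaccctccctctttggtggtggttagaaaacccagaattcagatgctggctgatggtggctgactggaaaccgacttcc
The Ugt1a7c window also holds 0. Elsewhere in the locus the Ugt1a5 window has 1 AHR-ARNT core and the Ugt1a9 window has 1 short element.

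Ahr, on chromosome 12 at 35497979 to 35534989 (gene ID 11622), encodes the receptor itself and was well expressed. With Ctnnb1 siRNA it had 96.1, 88.0 and 103 CPM under dDAVP, against 96.2, 89.6 and 87.1 CPM under vehicle. With control siRNA it had 110, 101 and 107 CPM under dDAVP, against 90.1, 90.3 and 94.1 CPM under vehicle. The dDAVP and vehicle libraries overlapped with Ctnnb1 siRNA. With control siRNA every dDAVP library lay above every vehicle library, as it did for 10.2% of all tested genes. The dDAVP log2 ratio was 0.08 ± 0.06 (SE) with Ctnnb1 siRNA and 0.21 ± 0.06 with control siRNA, and their difference did not pass the test (interaction -0.14, 95% interval -0.32 to 0.05, edgeR adjusted p = 0.918). Knockdown gave -0.01 under vehicle (-0.14 to 0.12, adjusted p = 0.995) and -0.15 under dDAVP (-0.28 to -0.02, adjusted p = 0.370). Leaving out replicate 3 of Ctnnb1 siRNA with dDAVP, the dDAVP ratio with Ctnnb1 siRNA was 0.02, the interaction -0.19 (edgeR adjusted p = 0.437) and the knockdown ratio under dDAVP -0.20 (adjusted p = 0.0839).

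**Figure D3:**
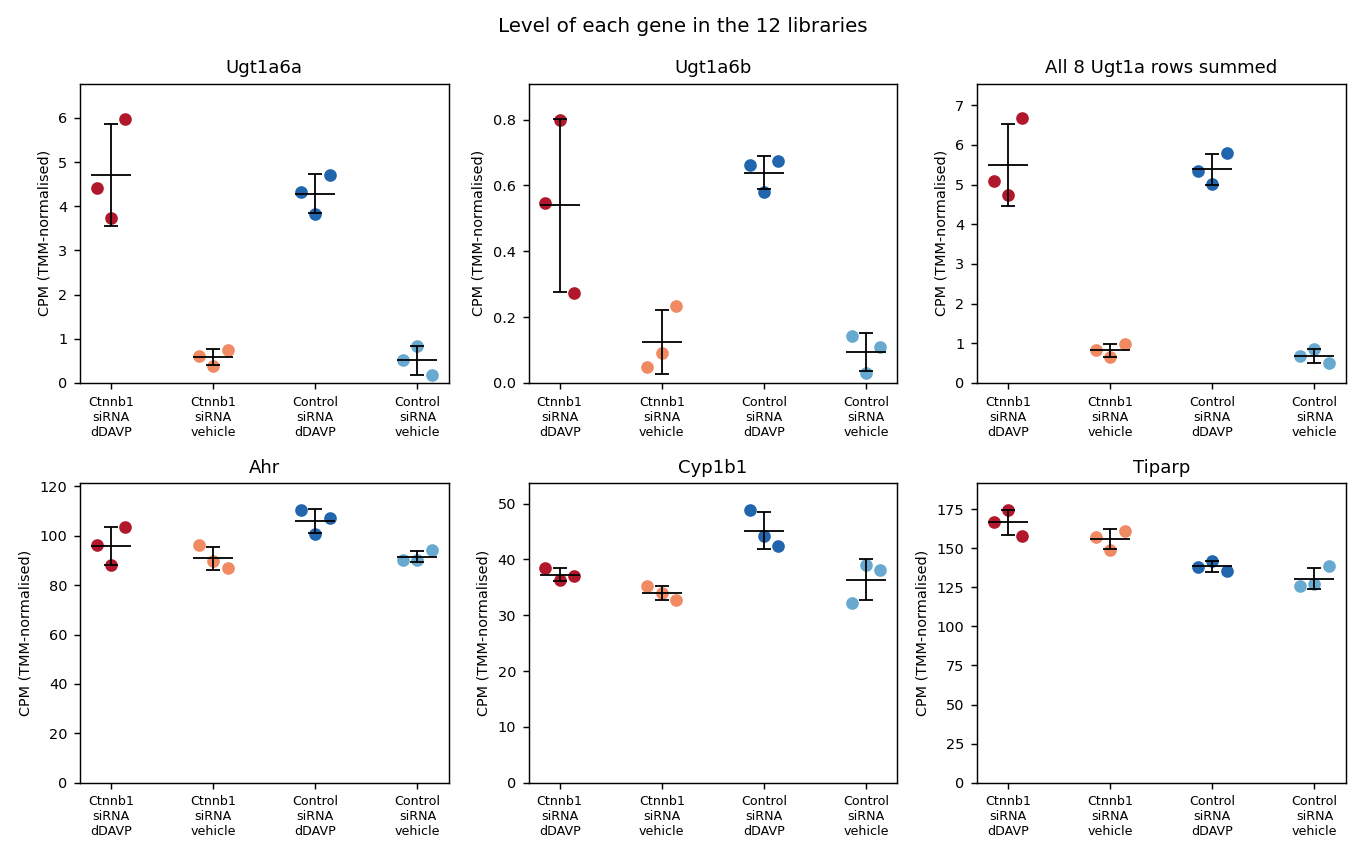
TMM-normalised CPM of each gene in the 12 libraries; points are libraries in replicate order, horizontal bars are group means and error bars are SD (n = 3). Ugt1a6a, Ugt1a6b and the Ugt1a sum separate dDAVP from vehicle libraries within each siRNA. So does Cyp1b1, by a small margin, and Ahr does with control siRNA only. Ahr, Cyp1b1 and Tiparp vary within a narrow range.

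Cyp1b1 and Tiparp are among the genes that activated AHR raises. Cyp1b1 encodes a cytochrome P450 that oxidises polycyclic hydrocarbons and oestrogens and lies on chromosome 17 at 79706940 to 79715061 (gene ID 13078). Tiparp encodes a mono-ADP-ribosyltransferase that acts on AHR and limits its activity and lies on chromosome 3 at 65528447 to 65555518 (gene ID 99929). Their promoter windows each hold 1 AHR-ARNT core, which is marked in capitals and reads CACGC here because it lies on the other strand. The first base of the core is 76 bases before the start in Cyp1b1 (chr17:79715012-79715311, minus strand) and 170 before it in Tiparp (chr3:65528197-65528496, plus strand).
Cyp1b1 promoter: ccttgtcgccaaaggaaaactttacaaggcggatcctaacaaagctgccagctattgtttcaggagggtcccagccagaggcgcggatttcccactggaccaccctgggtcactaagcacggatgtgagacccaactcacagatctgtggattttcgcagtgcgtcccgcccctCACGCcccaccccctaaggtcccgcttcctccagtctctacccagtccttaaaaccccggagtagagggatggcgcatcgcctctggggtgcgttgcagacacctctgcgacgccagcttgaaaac
Tiparp promoter: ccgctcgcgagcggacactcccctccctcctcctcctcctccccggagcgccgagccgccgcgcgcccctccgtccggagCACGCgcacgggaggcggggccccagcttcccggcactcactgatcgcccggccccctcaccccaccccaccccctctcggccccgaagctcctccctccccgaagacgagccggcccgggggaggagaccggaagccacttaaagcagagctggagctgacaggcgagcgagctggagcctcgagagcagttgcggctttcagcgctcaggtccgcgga
The Ahrr window holds 3 cores. With the core in 32.4% of all windows, a match is a description and not a site of binding.

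Cyp1b1 had 38.5, 36.4 and 37.0 CPM under dDAVP with Ctnnb1 siRNA, against 35.3, 33.9 and 32.7 CPM under vehicle. With control siRNA it had 48.8, 44.2 and 42.4 CPM under dDAVP, against 32.2, 39.0 and 38.0 CPM under vehicle. The dDAVP libraries lay above the vehicle libraries with both siRNAs, by a small margin. The log2 ratio was 0.13 ± 0.08 (SE), or 1.10-fold, with Ctnnb1 siRNA and 0.31 ± 0.08, or 1.24-fold, with control siRNA. No overlap with both siRNAs in the higher direction held for 3 of the 5 genes, Ugt1a6a, Ugt1a6b and Cyp1b1, and for 4.18% of all tested genes. Nothing is read from that count, since the choice of genes used the dDAVP response. Under dDAVP the 3 Ctnnb1-siRNA values lay below the 3 control-siRNA values, a pattern that 6.02% of tested genes showed. The log2 ratio of knockdown was -0.27 under dDAVP (95% interval -0.43 to -0.11, edgeR adjusted p = 0.163), -0.10 under vehicle (-0.26 to 0.06, adjusted p = 0.844) and -0.19 averaged over treatments (-0.30 to -0.07, adjusted p = 0.105). None passed edgeR, while DESeq2 called the ratio under dDAVP (adjusted p = 0.0423) and the average (adjusted p = 0.0411), and edgeR called the average without replicate 1 of control siRNA with vehicle (adjusted p = 0.0304). When replicate 3 of Ctnnb1 siRNA with dDAVP was left out, the dDAVP ratio with Ctnnb1 siRNA was 0.14, and the knockdown ratios were -0.27 under dDAVP and -0.18 in the average (edgeR adjusted p = 0.1004 and 0.0844).

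Tiparp was the member that changed with knockdown. Under dDAVP it had 167, 175 and 158 CPM with Ctnnb1 siRNA, against 138, 142 and 135 CPM with control siRNA. Under vehicle it had 157, 149 and 161 CPM with Ctnnb1 siRNA, against 126, 127 and 138 CPM with control siRNA. Each set of Ctnnb1-siRNA libraries lay above its control-siRNA libraries, which 7.26% of tested genes did under dDAVP and 8.95% under vehicle. Averaged over treatments Tiparp rose 1.20-fold with Ctnnb1 siRNA (log2 ratio 0.26 ± 0.04 SE, edgeR adjusted p = 0.00182). Within each treatment alone it missed the threshold, at 0.27 under dDAVP (edgeR adjusted p = 0.0528) and 0.26 under vehicle (adjusted p = 0.0543). The call of the average held with each library left out and was lost on log2(TPM + 1), where the ratio was 0.18 (limma adjusted p = 0.0757). Without replicate 3 of Ctnnb1 siRNA with dDAVP the average was 0.28 and both single comparisons passed, at 0.30 under dDAVP (edgeR adjusted p = 0.0165) and 0.26 under vehicle (adjusted p = 0.0146). dDAVP against vehicle gave 0.09 ± 0.05 (SE) with Ctnnb1 siRNA and 0.08 ± 0.05 with control siRNA, with overlapping libraries in both, and the first was 0.13 without that library.

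Over the 5 tested genes, edgeR called 1, Tiparp, in the averaged siRNA comparison, where 0.939% of all tested genes were called higher and 0.909% lower. It called 0 of 5 under vehicle, where 0.43% of all genes were called, and 0 of 5 under dDAVP, where 0.267% were. These shares hang on single libraries. Of all genes 71 were called under vehicle, with 18 without replicate 3 of Ctnnb1 siRNA with vehicle and 181 without replicate 3 of Ctnnb1 siRNA with dDAVP as the extremes. Under dDAVP 44 were called, with 5 without replicate 1 of control siRNA with dDAVP and 216 without replicate 3 of Ctnnb1 siRNA with dDAVP as the extremes; in that last fit 1 of the 5, Tiparp, was called in each comparison. At an unadjusted p under 0.05 there were 2 of 5 in the average, 1 under vehicle and 3 under dDAVP. Nothing is read from these, since no count over all genes stands beside them. DESeq2 called 2, 1 and 2 of the 5 in the same order, and 565, 177 and 237 of all 16508 genes. The interaction called 0 of the 5 genes and 0% of all 16508 by edgeR, with 0 of the 5 and 829 of all genes at an unadjusted p under 0.05, while DESeq2 called 0 of the 5 and 1 of all.

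**Figure D4:**
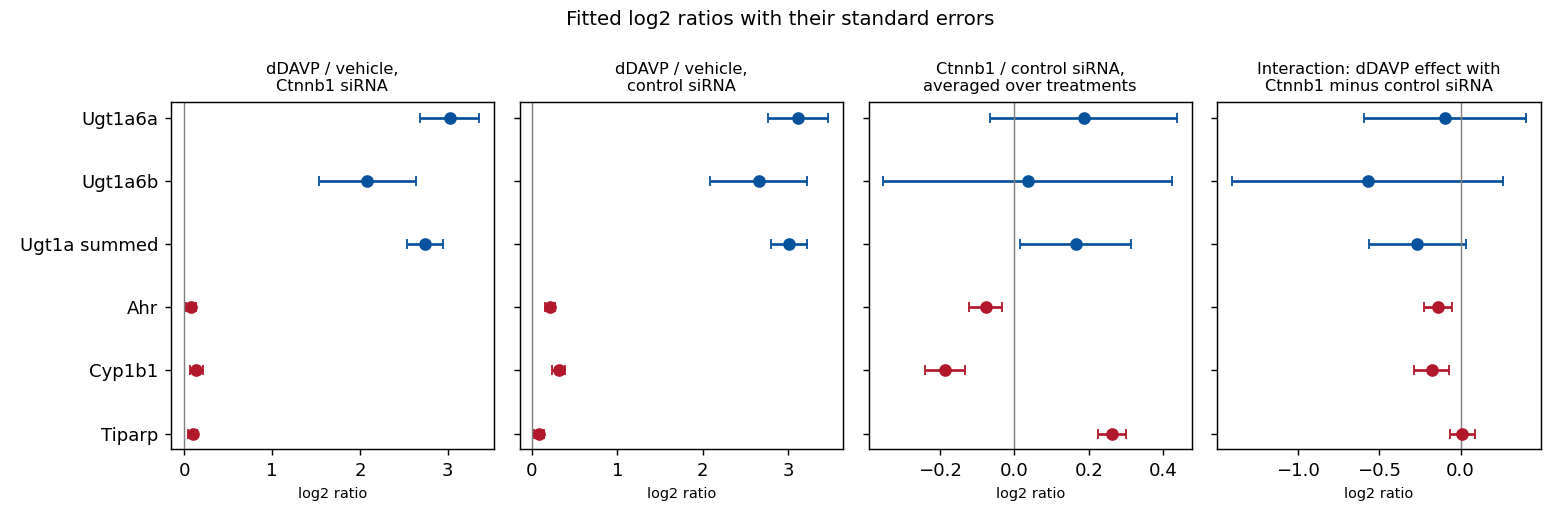
Fitted log2 ratios (points) with their standard errors (bars) for 3 Ugt1a rows (blue) and 3 AHR genes (red) in 4 comparisons, each with its own x scale; the grey line marks no difference. The Ugt1a rows are near 2 to 3 for dDAVP and near 0 with wide errors in the other panels, and Tiparp at 0.26 stands to the right in the averaged siRNA comparison.

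Per transcript length, the order of the genes was Tiparp, Ahr, Cyp1b1, Ugt1a6a, Ugt1a6b and Ugt1a7c. Tiparp averaged 69.8 TPM over the 12 libraries (59.5 to 76.3), Ahr 34.5 TPM (28.2 to 41.6) and Cyp1b1 15.4 TPM (12.2 to 21.2), so these ranges did not overlap. Ugt1a6a averaged 1.48 TPM (0.11 to 3.62) and Ugt1a6b 0.284 TPM (0.02 to 0.61), whose ranges over all libraries overlap although Ugt1a6a was higher within each library. Even with dDAVP, Ugt1a6a reached only 2.70 ± 0.84 TPM with Ctnnb1 siRNA and 2.58 ± 0.36 TPM with control siRNA (SD, n = 3 each), which is below the lowest Cyp1b1 value.

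Other genes of glucuronidation, AHR signalling and detoxification were taken from 7 lists of 84 genes, without the 7 named ones. Of these 67 had a row and 51 were tested. The lists were chosen with earlier results of these data known, so nothing is read from how many of their genes were called. With dDAVP 6 of the 51 were called higher and 1 lower with Ctnnb1 siRNA, against 2.08% and 0.697% of all tested genes. With control siRNA 6 were called higher and 2 lower, against 1.91% and 0.915% of all. Without replicate 3 of Ctnnb1 siRNA with dDAVP 7 were called higher and 1 lower with Ctnnb1 siRNA, and 7 higher and 2 lower with control siRNA, where 2.92% and 5.01% of all genes were called in either direction. The median log2 ratio of the 51 was 0.08 with either siRNA, and that of all tested genes was -0.0049 with Ctnnb1 siRNA and -0.0042 with control siRNA. With knockdown 5 were called higher and 0 lower in the average over treatments, against 0.939% and 0.909% of all tested genes, at a median of 0.016 against -0.00071 for all. Without that library 6 were called higher and 1 lower in the average, where 3.60% of all genes were called in either direction. In the main comparisons 2 were called higher under vehicle (0.206% of all genes) and 0 under dDAVP (0.121% of all).

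Of 13 genes of the Ugt2, Ugt3 and Ugt8 families 7 had a row and 2 were tested. Ugt2b34, another glucuronosyltransferase, had 0.678, 0.914 and 1.58 CPM under dDAVP with Ctnnb1 siRNA, against 0.245, 0.248 and 0.326 CPM under vehicle. With control siRNA it had 0.509, 0.961 and 0.884 CPM under dDAVP, against 0.143, 0.209 and 0.108 CPM under vehicle. It rose with dDAVP with both siRNAs, by 1.94 ± 0.39 (SE, edgeR adjusted p = 0.0109) and 2.38 ± 0.44 (adjusted p = 0.00594) on the log2 scale. The first call was lost without replicate 3 of Ctnnb1 siRNA with dDAVP, where the ratio was 1.53 (adjusted p = 0.0525), and without replicate 1 or 2 of Ctnnb1 siRNA with vehicle (adjusted p = 0.0645 and 0.0693). On log2(TPM + 1) both calls were lost (limma adjusted p = 0.0719 and 0.0679). Ugt8a, the ceramide galactosyltransferase, was not called by edgeR in any comparison, while DESeq2 called it in the knockdown average.

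The partners of AHR showed no detectable change. Neither edgeR nor DESeq2 called any of the 11 tested partners and chaperones in any comparison, with median log2 ratios of 0.04 (Ctnnb1 siRNA) and 0.08 (control siRNA) for dDAVP; at an unadjusted p under 0.05 there were 1 and 2 of 11. Arnt, the obligate dimer partner, was at 57.4 to 74.4 CPM over all 12 libraries, with a dDAVP log2 ratio of 0.02 ± 0.10 (SE) with Ctnnb1 siRNA and 0.08 ± 0.10 with control siRNA.

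Of 14 other AHR target genes, Nqo1 rose and Scin and Ccng2 fell with dDAVP under control siRNA. Of the 14 listed 8 had a row and 6 were tested; Cyp1a1 and Cyp1a2, the classic reporters of AHR activity, were not analysed here. Nqo1, a quinone reductase that NRF2 also raises, had 190, 213 and 180 CPM under dDAVP with Ctnnb1 siRNA, against 162, 150 and 173 CPM under vehicle. In control-siRNA cells it had 159, 173 and 163 CPM under dDAVP, against 123, 108 and 115 CPM under vehicle. It rose with dDAVP under control siRNA (log2 ratio 0.52 ± 0.07 SE, edgeR adjusted p = 0.000533), while with Ctnnb1 siRNA the ratio was 0.26 ± 0.07 (adjusted p = 0.0623). That ratio passed by DESeq2 (adjusted p = 0.0156), and by edgeR without replicate 3 of Ctnnb1 siRNA with dDAVP, at 0.32 (adjusted p = 0.0206). The interaction of -0.25 did not pass (edgeR adjusted p = 0.918). Nqo1 also rose with knockdown, by 0.49 under vehicle (edgeR adjusted p = 0.00513) and 0.36 in the average (adjusted p = 0.00133), which was 0.39 without that library. Under dDAVP the knockdown ratio of Nqo1 was 0.235 and did not pass (edgeR adjusted p = 0.198). Ereg, the gene of the growth factor epiregulin, rose with knockdown by 0.84 under vehicle (edgeR adjusted p = 0.0273) and by 0.61 in the average (adjusted p = 0.00893). Its ratio under dDAVP was 0.38 and did not pass (edgeR adjusted p = 0.367). The call of the Ereg average was lost on log2(TPM + 1) (limma adjusted p = 0.0533), and the averaged ratio was 0.62 without that library. Scin, which encodes the actin-severing protein scinderin, fell with dDAVP by 0.24 with Ctnnb1 siRNA (edgeR adjusted p = 0.0116) and by 0.38 with control siRNA (adjusted p = 0.000268). The first of these was lost without replicate 2 or 3 of Ctnnb1 siRNA with vehicle (adjusted p = 0.0686 and 0.0636) and in a fit of only the 2 groups (adjusted p = 0.0501), and was -0.22 without replicate 3 of Ctnnb1 siRNA with dDAVP (adjusted p = 0.0219). Ccng2, the gene of cyclin G2, had 137, 135 and 135 CPM under dDAVP with Ctnnb1 siRNA, against 148, 150 and 160 CPM under vehicle. In control-siRNA cells it had 125, 133 and 127 CPM under dDAVP, against 147, 160 and 157 CPM under vehicle. It fell by 0.27 with control siRNA (edgeR adjusted p = 0.00523). The ratio with Ctnnb1 siRNA was -0.17 (edgeR adjusted p = 0.0756), which DESeq2 called (adjusted p = 0.0176), and it stayed at -0.17 without replicate 3 of Ctnnb1 siRNA with dDAVP. The interaction of 0.10 did not pass (edgeR adjusted p = 0.923). With dDAVP under control siRNA Nqo1 and Scin moved in opposite directions.

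All 8 genes listed for the supply of UDP-glucuronic acid were tested, and edgeR called 0 in each comparison. At an unadjusted p under 0.05 there were 1 and 2 of 8 for dDAVP with Ctnnb1 siRNA and with control siRNA. DESeq2 called Slc35d1, a transporter of UDP-glucuronic acid, for dDAVP with control siRNA, and Ugdh in the knockdown average. Ugdh, the dehydrogenase that makes UDP-glucuronic acid, had a dDAVP log2 ratio of 0.14 ± 0.06 (SE) with Ctnnb1 siRNA and 0.09 ± 0.06 with control siRNA. Ugp2, which makes UDP-glucose, gave 0.13 ± 0.06 and 0.08 ± 0.06 in the same order.

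Among the other conjugation and efflux genes 18 were tested, and 5 rose with dDAVP with Ctnnb1 siRNA and 3 with control siRNA. Of all tested genes 2.08% and 1.91% were called higher in these comparisons. The interaction called 0 of the 18 by edgeR. Sult1d1, a sulfotransferase, had 11.02, 12.8 and 22.1 CPM under dDAVP with Ctnnb1 siRNA, against 4.60, 4.10 and 4.78 CPM under vehicle. In control-siRNA cells it had 9.67, 8.82 and 7.08 CPM under dDAVP, against 3.63, 2.59 and 2.56 CPM under vehicle. Its log2 ratios were 1.77 ± 0.23 (SE, edgeR adjusted p = 0.000645) and 1.53 ± 0.25 (adjusted p = 0.00327), and the first was 1.40 without replicate 3 of Ctnnb1 siRNA with dDAVP. Abcc3, an exporter of glucuronides, rose by 0.68 with Ctnnb1 siRNA (edgeR adjusted p = 0.00144) and by 0.81 with control siRNA (adjusted p = 0.000313). Gstm1, a glutathione transferase, rose by 0.49 with Ctnnb1 siRNA (edgeR adjusted p = 0.00245) and by 0.42 with control siRNA (adjusted p = 0.00787), the second lost without replicate 2 or 3 of control siRNA with vehicle (adjusted p = 0.0517 and 0.0597). Abcg2, an exporter of xenobiotics and urate, rose by 0.98 with Ctnnb1 siRNA (edgeR adjusted p = 0.0072), and its ratio with control siRNA was 0.69 (adjusted p = 0.0802). The second ratio passed by DESeq2 (adjusted p = 0.0226), and by edgeR without replicate 3 of Ctnnb1 siRNA with dDAVP (adjusted p = 0.0240). With knockdown Abcg2 rose by 0.74 (edgeR adjusted p = 0.00814), Sult1d1 by 0.73 (adjusted p = 0.0451) and Gstm1 by 0.35 (adjusted p = 0.0045) in the average over treatments. The Sult1d1 call was lost in 12 of 20 alternatives. On log2(TPM + 1) the dDAVP calls of Abcc3 and Abcg2 with Ctnnb1 siRNA and of Gstm1 with control siRNA were lost, as was that of Gstm1 in the knockdown average (limma adjusted p = 0.0537 to 0.0704). Sult1c2 was the fifth gene called with dDAVP and Ctnnb1 siRNA, at 1.02 (edgeR adjusted p = 0.00774), and falls outside the rule for named genes. Without replicate 3 of Ctnnb1 siRNA with dDAVP the dDAVP ratios with Ctnnb1 siRNA were 0.65 for Abcc3, 0.42 for Gstm1, 0.77 for Abcg2 and 0.81 for Sult1c2, all still called by edgeR (adjusted p = 0.0047 to 0.0236). The knockdown averages were then 0.63 for Abcg2, 0.55 for Sult1d1 and 0.31 for Gstm1, also still called (adjusted p = 0.00517 to 0.0128).

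Of 12 receptors and factors known at UGT1A promoters 10 had a row and 7 were tested. Rxra, a partner of several nuclear receptors, was called higher with dDAVP under control siRNA by 0.20 (edgeR adjusted p = 0.0438), a call lost in 11 of 21 alternatives, and no other passed edgeR. Nfe2l2, which encodes NRF2 and stands on both this list and that of AHR targets, gave 0.12 ± 0.06 (SE) with Ctnnb1 siRNA and 0.11 ± 0.06 with control siRNA (edgeR adjusted p = 0.397 and 0.429).

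**Figure D5:**
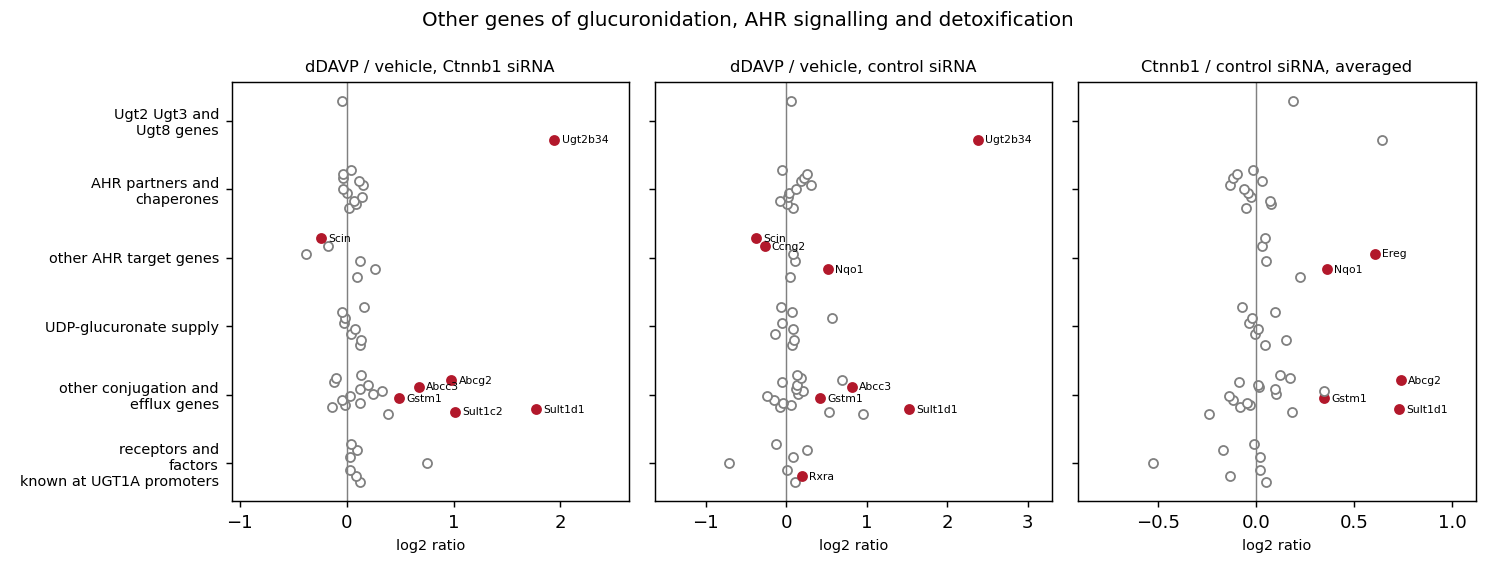
Fitted log2 ratios of the tested list genes in 3 comparisons; each point is a gene, filled red and named where its edgeR adjusted p was under 0.05 and open otherwise, and x scales differ between panels. Conjugation and efflux genes are 18 of the 51 tested. For dDAVP they make up 5 of the 7 named with Ctnnb1 siRNA and 3 of the 8 named with control siRNA. No AHR partner or UDP-glucuronate gene is named.

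The genes whose levels ran most like those of Ugt1a6a were found by the root mean square (RMS) difference of log2 CPM over the 12 libraries, each gene centred on its own mean, among 11470 genes with a mean of at least 1 CPM. The median gene differed from Ugt1a6a by 1.61. The nearest were Baiap2l2 (0.478), a membrane-bending adaptor, Pde4b (0.482), a cAMP phosphodiesterase, Chil1 (0.525), a chitinase-like secreted protein, Sprr2g (0.555), a small proline-rich protein, and Aqp5 (0.597), a water channel. Measured from the summed Ugt1a reads, against a median of 1.43, the nearest were Baiap2l2 (0.220), Pde4b (0.315), Aqp5 (0.361), Chil1 (0.414) and Arg2 (0.419), an arginase. The nearness follows the dDAVP contrast, since each of these genes had a dDAVP log2 ratio of at least 2.07 with both siRNAs, such as 3.12 (Ctnnb1 siRNA) and 3.16 (control siRNA) for Pde4b. Ahr, Cyp1b1 and Tiparp were not among them, and nothing is read from that. Their dDAVP log2 ratios were 0.08 to 0.31, and this measure depends on the size of the change.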

How the data were processed

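Strand-specific libraries of total RNA depleted of ribosomal RNA were sequenced, 12 in 4 groups, per the labels' protocols. The submitters' processing notes name FastQC, Trimmomatic, HISAT2, StringTie, DESeq2 and GRCm38 (mm10), without versions; whether counting used the strand, and how reads shared by Ugt1a genes were divided, is not given in the sources used here. The deposited table gives the authors' read counts per gene, not normalised, and the authors' TPM values, scaled by transcript length, per the file headers. Totals of 32997720 to 48935473 reads set the precision, and intervals cover counting error only.

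The count model was edgeR 4.0.16 in R 4.3.3: filterByExpr (minimum count 10), TMM scaling, a robust quasi-likelihood fit of 4 group means to all 12 libraries, and Benjamini-Hochberg adjustment over 16508 genes, which hold 99.968% of reads. The common biological coefficient of variation was 8.26%. Calls were made below an adjusted p of 0.05. The 8 Ugt1a rows, and Ugt1a6a, Ugt1a6b and Ugt1a7c alone, were also summed to 1 row in a repeat of the fit. No per-sample column was left out. The fit was tested on simulated data.

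The members and lists were chosen with earlier results of these data known. Besides the 7 members and the other Ugt1a rows, genes were named as up to 4 called genes per list and comparison by smallest adjusted p and as the 5 nearest to Ugt1a6a, and to the summed row, in RMS difference of log2 CPM (prior count 2), without predicted genes, pseudogenes and small RNAs. Arnt, Ugdh, Ugp2, Nfe2l2, Slc35d1, Ugt8a and Sult1c2 are named outside this rule, after their values were seen. Sequences are from RefSeq (promoters, GRCm38.p6) and GENCODE M21 (exons). Alternatives were DESeq2 1.42.0, its size factors and upper-quartile scaling in edgeR, other filters, fits of the 2 groups compared, a replicate block, limma 3.58.1 on log2(TPM + 1) and log2(TPM + 0.1), and each library left out in turn.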

Additional observations from a re-analysis of the deposited data

How the results depend on the processing

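Of 1341 recomputed values for 65 results, 1226 were scored as unchanged. A tested ratio had to keep its direction and side of the threshold. An untested ratio had to move by less than the spread between replicates. A count of called genes had only to stay near the main count, so single genes in it may have crossed the threshold. Depth limits the Ugt1a rows, of which only Ugt1a6a, Ugt1a6b and the sum could be compared. TPM values are rounded and a pseudocount pulls low genes towards 0: on log2(TPM + 1) the dDAVP ratio of Ugt1a6a was 1.45 with Ctnnb1 siRNA and 1.45 with control siRNA, and that of the Ugt1a sum 1.498 and 1.612; with a pseudocount of 0.1 the sum gave 2.72 with control siRNA. In knockdown ratios log2(TPM + 1) and log2(TPM + 0.1) turned the direction of the summed Ugt1a reads under dDAVP (-0.055 and -0.073) and of Ugt1a6b in the average (-0.055 and -0.14), and moved Tiparp in the average to 0.18 and 0.18 (limma adjusted p = 0.0757 and 0.077). The cause of the turned directions was not tested.

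Members called with knockdown numbered 1 under vehicle with DESeq2, with the filter at 1 CPM and with only the 2 groups in the fit, 2 (DESeq2) and 1 (filter at 1 CPM) under dDAVP, and 2 (DESeq2) and 0 (either TPM scale) in the average. Over all genes the main fit called 71 under vehicle, 44 under dDAVP and 305 in the average, in either direction. DESeq2 called 177, 237 and 565 in the same order, and the filter at 1 CPM 84 and 56 in the first 2. With only the 2 groups 255 were called under vehicle, and the TPM scales called 269 and 249 in the average. List genes called higher with dDAVP numbered 9 (DESeq2) and 3 (log2(TPM + 1)) with either siRNA, and in the knockdown average 9 (DESeq2) and 2 (either TPM scale). List genes called lower numbered 2 (DESeq2) and 0 (2 groups only) for dDAVP with Ctnnb1 siRNA and 1 (DESeq2) for the knockdown average. For dDAVP over all genes the main fit called 459 with Ctnnb1 siRNA and 467 with control siRNA, in either direction. DESeq2 called 728 and 757 in the same order, and log2(TPM + 1) 210 and 401. The fit of 2 groups called 275 with Ctnnb1 siRNA. The filter at 1 CPM gave no value for Ugt1a6b, and fits of 2 groups none for the average or the interaction.

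With each library left out in turn, the members called with knockdown numbered 0 to 1 under vehicle, 0 to 1 under dDAVP and 1 to 2 in the average, list genes called higher 4 to 7 for dDAVP with Ctnnb1 siRNA, 4 to 9 with control siRNA and 4 to 7 in the knockdown average, and list genes called lower 0 to 1 for dDAVP with Ctnnb1 siRNA and 0 to 1 in the knockdown average. Some uncalled values changed direction, each with a small ratio for its error. For knockdown, Ugt1a6a ranged from -0.20 to 0.70 under vehicle, -0.073 to 0.28 under dDAVP and -0.031 to 0.42 in the average, and Ugt1a6b from -0.48 to 0.73, -0.64 to 0.073 and -0.36 to 0.24 in the same order. The summed Ugt1a reads ranged from -0.13 to 0.13 under dDAVP and Ahr from -0.047 to 0.023 under vehicle. The interaction ranged from -0.57 to 0.33 for Ugt1a6a, -0.98 to 0.23 for Ugt1a6b and -0.042 to 0.047 for Tiparp.

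The replicate numbers did not pair the libraries: deviations of same-numbered libraries correlated at -0.147 to 0.194 over 18 pairs, 2 of them over 0.1. With the number as a replicate block the dDAVP log2 ratio of the summed Ugt1a reads was 2.74 with Ctnnb1 siRNA and 3.00 with control siRNA, Tiparp kept its call in the average (0.26, edgeR adjusted p = 0.00612), and among the named genes the block took the call from Sult1d1 in the knockdown average (adjusted p = 0.079) and from Rxra (adjusted p = 0.0543).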
